A study of Mus musculus with 16 samples.

Results

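The H3K4me3 peaks of non-HFSCs were compared between early anagen, when the hair follicle begins to grow, and late catagen, when it has regressed. Members were the 24498 peaks of the nEA-HFSC list (PD22 to PD25) and the 18996 peaks of the nLC-HFSC list (PD38 to PD44), 43494 of the 219698 peaks in the 12 lists of the series. An nEA peak that shared at least 1 bp with an nLC peak was called kept, and an nEA peak with no such overlap lost. An nLC peak that overlapped no nEA peak was called gained. The cells of both ages came from the skin of CD1 x FVB mice labelled as male, pooled over animals, and were sorted as CD34- and α6-integrin+, a gate described by the study as holding mainly epidermis and lower outer root sheath. The sorted chromatin was cut with MNase and divided among antibodies to 3 histone H3 marks and an IgG control, which served as background for peak calling. HFSCs, the CD34+ and α6-integrin+ cells of the bulge from the same ages, were used here only for comparison. There was 1 pooled list per side, so no test over samples could be made, and no p-value is given. Percentages carry 95% Wilson intervals. These express counting error alone, and peaks that lie close together are not independent of each other. The study's methods give read numbers only as ranges, over all samples and for HFSCs at each age, with more reads in LC-HFSCs than in EA-HFSCs. For non-HFSCs no numbers by age are given. The methods describe H3K4me3 peak detection as close to saturated, and the depth of each single list was not used here. A lower level of the mark, fewer cells that carry it and a shallower library cannot be told apart from peak lists alone.

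H3K4me3 is a methylation mark placed on histone H3 by the SET1 and MLL enzyme complexes, and it lies at the starts of active and poised genes. It is strongest over CpG islands, where CXXC proteins such as Cfp1 (Cxxc1) recruit the writers to unmethylated CpG. In many tissues the genes that define a cell type carry broad H3K4me3 domains, while enhancers carry at most short and weak ones. Promoters that carry both H3K4me3 and H3K27me3, the mark of Polycomb complex PRC2, are termed bivalent.

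To let the DNA under kept, lost and gained peaks be seen, 8 stretches from mm9 are given as examples, with CpG in capitals and all outside annotated exons. Single stretches vary widely within a class, and the counts over all peaks follow further on. For promoter peaks, the 200 bases just upstream of a transcript start are given on the strand of the gene, and for distal peaks the 200 bases at the middle of the peak on the plus strand. Krt14 and Krt5 encode the basal keratins, and their peaks were kept.
Krt14, chr11:100068863-100069062, minus strand: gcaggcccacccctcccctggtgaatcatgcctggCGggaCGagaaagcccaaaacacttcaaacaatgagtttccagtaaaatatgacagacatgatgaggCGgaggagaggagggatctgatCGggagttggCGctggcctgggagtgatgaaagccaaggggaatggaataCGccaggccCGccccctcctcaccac
Krt5, chr15:101543323-101543522, minus strand: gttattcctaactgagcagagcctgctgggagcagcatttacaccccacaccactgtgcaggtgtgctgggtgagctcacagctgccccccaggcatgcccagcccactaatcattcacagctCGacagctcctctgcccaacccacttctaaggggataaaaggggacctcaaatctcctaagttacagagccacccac
Adam8, a membrane metalloprotease gene, and Gpc3, which encodes the heparan sulphate proteoglycan glypican 3, had 2 of the highest-scoring lost promoter peaks, and the stretch from Gpc3 holds 22 CpG against 6 at Adam8, 7 at Krt14 and 1 at Krt5.
Adam8, chr7:147178462-147178661, minus strand: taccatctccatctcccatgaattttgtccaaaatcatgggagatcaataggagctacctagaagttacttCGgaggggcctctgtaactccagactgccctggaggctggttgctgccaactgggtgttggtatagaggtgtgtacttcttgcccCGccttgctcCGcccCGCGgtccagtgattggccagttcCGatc
Gpc3, chrX:49967128-49967327, minus strand: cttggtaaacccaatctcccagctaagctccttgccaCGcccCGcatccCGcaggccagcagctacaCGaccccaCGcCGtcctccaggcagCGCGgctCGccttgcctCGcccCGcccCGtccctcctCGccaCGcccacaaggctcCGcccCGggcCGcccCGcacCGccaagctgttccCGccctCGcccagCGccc
The widest kept distal peak lay nearest to Ppara, the lipid-sensing nuclear receptor PPARα. The widest lost distal peak lay nearest to Fam83f. Neither stretch holds a CpG.
Ppara, chr15:85504257-85504456, plus strand: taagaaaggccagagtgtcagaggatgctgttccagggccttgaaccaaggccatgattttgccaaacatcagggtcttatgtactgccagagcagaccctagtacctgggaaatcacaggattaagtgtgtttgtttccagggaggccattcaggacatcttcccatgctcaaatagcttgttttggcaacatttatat
Fam83f, chr15:80512594-80512793, plus strand: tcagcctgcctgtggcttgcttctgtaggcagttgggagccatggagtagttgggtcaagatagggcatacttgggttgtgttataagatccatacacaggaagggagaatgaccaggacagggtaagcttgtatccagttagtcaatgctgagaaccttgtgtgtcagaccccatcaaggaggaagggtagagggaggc
Wide gained distal peaks nearest to Hdac5, a class IIa histone deacetylase, and Ncaph, a condensin subunit, held 9 and 7 CpG in their central stretches.
Hdac5, chr11:102073288-102073487, plus strand: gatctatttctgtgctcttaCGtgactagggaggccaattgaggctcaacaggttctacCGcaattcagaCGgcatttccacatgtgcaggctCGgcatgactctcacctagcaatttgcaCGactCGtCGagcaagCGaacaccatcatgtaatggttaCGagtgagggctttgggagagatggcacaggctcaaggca
Ncaph, chr2:126963608-126963807, plus strand: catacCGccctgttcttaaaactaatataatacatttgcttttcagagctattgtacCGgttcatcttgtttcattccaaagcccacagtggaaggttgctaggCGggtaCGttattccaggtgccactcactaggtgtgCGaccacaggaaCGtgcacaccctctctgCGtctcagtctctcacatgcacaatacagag

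From early anagen to late catagen, the H3K4me3 list of non-HFSCs became shorter, mainly through the loss of narrow peaks away from promoters. Of the 24498 nEA peaks, 6825 were lost, or 27.9% (27.3 to 28.4%). Of the 18996 nLC peaks, 1050 were gained, or 5.53% (5.21 to 5.86%). Promoter peaks, which reach to within 1000 bp of the start of a protein-coding transcript, were lost in 942 of 13119 cases, or 7.18% (6.75 to 7.63%). Distal peaks, all others on the chromosomes, were lost in 5875 of 11353 cases, or 51.7% (50.8 to 52.7%). These shares depend on the definition of a promoter. With promoters called only where the middle of the peak lay from 1000 bp upstream to 100 bp downstream of a start, which 5018 nEA peaks met, 9.61% of promoter and 32.6% of distal peaks were lost, and with a 3000-bp window 10.99% of promoter peaks were. The direction of the imbalance was the same in both places, since 0.943% (0.787 to 1.13%) of promoter and 14.0% (13.2 to 14.8%) of distal nLC peaks were gained. Promoters held 68.9% of the kept nEA peaks, 13.8% of the lost and 11.05% of the gained peaks, so lost and gained peaks resembled each other in place and both differed from the kept ones.

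The lists covered 48.8 Mb in nEA-HFSCs and 37.5 Mb in nLC-HFSCs, a ratio of 0.767, close to the ratio of 0.775 of the peak numbers. Lost peaks accounted for 6.80 Mb and gained peaks for 0.833 Mb. The net of the 2 was 52.5% of the fall in covered length, and the other 47.5% came from narrower coverage inside loci present in both lists. Loss and narrowing thus contributed about equally to the fall. The lost share lay between 24.5% on chromosome 17 and 33.3% on chromosome 12 among the autosomes. It was 16.4% (13.6 to 19.7%) on the X chromosome, where 72.4% of the nEA peaks were at promoters against 53.6% over the whole list.

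The imbalance between loss and gain depended on how many peaks each list held. When the 18996 highest-scoring peaks of nEA-HFSCs were set against all 18996 nLC peaks, 12.3% (11.8 to 12.8%) were lost and 10.2% (9.76 to 10.6%) gained. In this setting distal peaks were still lost more often than promoter peaks, at 29.0% (27.9 to 30.1%) and 3.53% (3.22 to 3.87%). The covered length of nLC-HFSCs remained below that of nEA-HFSCs, at a ratio of 0.852. With only peaks that scored at least 100 in both lists, 19.8% were lost and 2.28% gained.

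Width separated lost from kept peaks. The median width was 2148 bp for kept nEA peaks, 933 bp for lost and 745.5 bp for gained peaks. Among promoter peaks the medians were 2505 bp for kept and 1020.5 bp for lost, and among distal peaks 1337 bp and 923 bp. Of nEA peaks under 750 bp wide, 83.7% (82.1 to 85.2%) were lost. The share was 39.5% (38.2 to 40.8%) from 1000 to 1500 bp and 2.23% (1.88 to 2.65%) from 2000 to 3000 bp. From 3000 to 5000 bp, 9 of 3529 peaks were lost, and of the 689 peaks of 5000 bp or more none was, which allows a share of up to 0.554%. All peaks of 5000 bp or more thus met the 1-bp rule, which does not show that they stayed as wide. Of the nLC peaks, 357 were of 5000 bp or more. The widest lost peak, 3883 bp in an intron with Fam83f as the nearest gene, lay 100 bp from an nLC peak. At every width up to 5000 bp, distal peaks were lost more often than promoter peaks. From 1500 to 2000 bp the shares were 23.4% (21.4 to 25.6%) for distal and 4.76% (3.93 to 5.75%) for promoter peaks. Gained peaks were narrower still, and 5.25% of distal nLC peaks of 1000 to 1500 bp were gained against 40.9% of those under 750 bp.

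**Figure D1:**
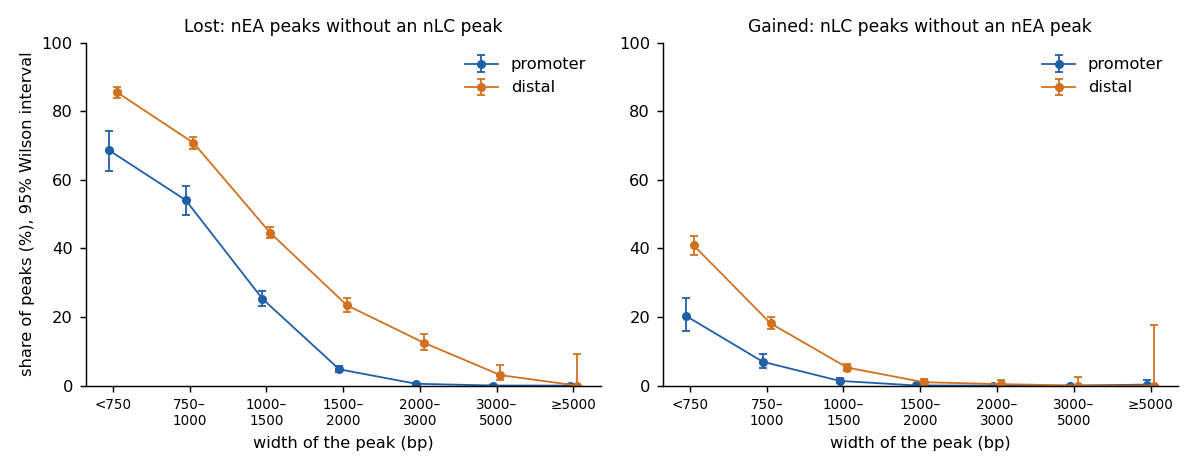
Share of nEA-HFSC H3K4me3 peaks that were lost (left) and of nLC-HFSC peaks that were gained (right), in percent of the peaks of each width in bp, for promoter (blue) and distal (orange) peaks, with 95% Wilson intervals. Distal peaks under 750 bp were lost in 85.6% of cases and gained in 40.9%, and both shares fell towards 0 for wide peaks.

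The lost peaks were also the weakest called. The score of a peak is 10 times the negative log10 of its p-value, with a lowest value of 50, and it ranks peaks within a list. The median score of the lost peaks was 77.8, and 69.0% of them scored under 100, whereas the kept nEA peaks had a median of 1339. Of nEA peaks that scored 50 to 75, 86.1% (85.0 to 87.2%) were lost, and of those that scored 200 to 500, 11.3% (10.2 to 12.5%). Above 500 the loss all but ended, with 5 of 2056 peaks from 500 to 1000, 1 of 3522 from 1000 to 2000 and 0 of 6449 from 2000 up, the last allowing up to 0.0595%. The gained peaks stayed closer to the threshold, with a median of 61.1, 89.6% of them under 100 and none above 186.04.

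Place made less difference among peaks of similar score. From 100 to 200, 41.4% (37.9 to 45.0%) of promoter peaks and 51.3% (49.4 to 53.1%) of distal peaks were lost. From 200 to 500 the shares were 8.48% (7.01 to 10.2%) and 12.9% (11.5 to 14.5%). Distal peaks kept the higher share, but by far less than the 7.18% and 51.7% over all scores. Within promoter peaks that scored 200 to 500, the lost share was 9.23% (4.30 to 18.7%) under 1000 bp and 7.85% (4.82 to 12.6%) at 2000 bp or more, intervals that overlap. Within distal peaks of that score the wider ones were lost more often, with 10.2% (6.45 to 15.7%) under 1000 bp and 20.5% (15.9 to 25.9%) at 2000 bp or more. Among the weakest peaks, with scores of 50 to 100, the trend was the reverse, with 85.1% (83.9 to 86.2%) of distal peaks lost under 1000 bp and 74.5% (71.9 to 76.8%) from 1000 to 1500 bp.

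CpG content moved with the fate of distal peaks. In the central 300 bp, the median number of CpG was 18 for kept and 14 for lost promoter peaks, 8 for kept and 5 for lost distal peaks, and 8 and 5 for gained promoter and distal peaks, against 2 in all 300-bp windows of mm9. Of distal nEA peaks without a CpG in this window 79.4% (73.3 to 84.4%) were lost, and of those with 20 or more 21.4% (18.8 to 24.2%). The median score rose with the CpG number over the same peaks, from 76.2 to 370. At scores from 100 to 200, lost distal peaks had a median of 5 CpG and kept ones 7. Promoter peaks of that score had 18 CpG for lost and 15 for kept, whereas at scores of 50 to 100 lost promoter peaks had 11 and kept ones 13. Over all scores promoter peaks showed a weaker trend than distal ones, from 13.3% (10.5 to 16.8%) lost with 1 or 2 CpG to 5.58% (5.03 to 6.19%) with 20 or more. Lost and gained distal peaks were alike in GC content, with medians of 49.3% and 49.0%, and kept distal peaks had 51.7%.

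**Figure D2:**
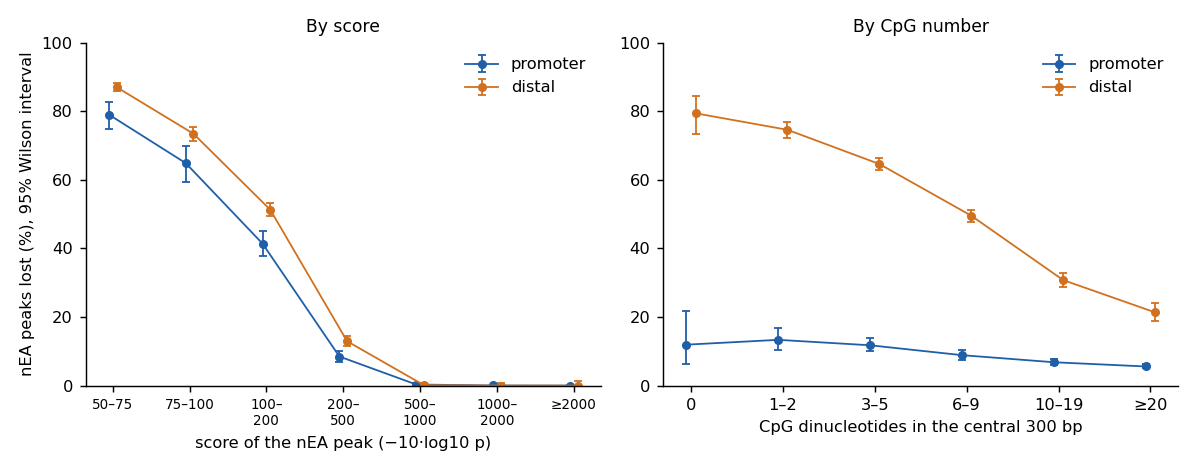
Share of nEA-HFSC H3K4me3 peaks that were lost, in percent with 95% Wilson intervals, by the score of the peak (left) and by the number of CpG in its central 300 bp (right), for promoter (blue) and distal (orange) peaks. Loss fell from 87.0% of distal peaks with a score of 50 to 75 to 12.9% at 200 to 500, and from 79.4% of distal peaks with no CpG to 21.4% with 20 or more.

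Short sequence motifs were counted on both strands in the same 300-bp windows, as a description of letters and not of binding. The AP-1 motif TGANTCA was found in 12.9% (12.0 to 13.7%) of lost distal, 9.95% (9.18 to 10.8%) of kept distal and 12.5% (10.6 to 14.8%) of gained distal windows, beside 8.83% of all mm9 windows. AP-1 factors bind many enhancers of keratinocytes. The ETS motif CCGGAAGT, common at CpG island promoters, was in 2.72% (2.44 to 3.02%) of kept promoter, 0.849% (0.431 to 1.67%) of lost promoter and 0.460% (0.316 to 0.668%) of lost distal windows, beside 0.183% of all windows. The Runx motif TGTGGTT was in 6.81% (6.19 to 7.48%) of lost and 5.24% (4.68 to 5.86%) of kept distal windows, beside 6.99% of all windows. The GATA motif AGATAAG was in 4.90% (4.38 to 5.48%) and 3.32% (2.88 to 3.83%), beside 4.42% of all windows. For Runx and GATA the lost distal shares lay near that of the genome and the kept distal shares below it. These shares were not matched for score. At scores of 50 to 100 the ETS motif was in 1.02% of kept and 1.32% of lost promoter windows. In distal windows of that score AP-1 was in 12.0% of kept and 13.1% of lost, and Runx in 6.51% and 6.86%. GATA was in 3.20% and 5.25% there, but in 4.27% and 4.05% at scores of 100 to 200. From 200 to 500, AP-1 was in 9.83% of kept and 14.5% of lost distal windows.

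Distal loss was greatest in introns, in shares not matched for score. Distal peaks with their middle in an intron of a protein-coding gene were lost in 60.9% (59.5 to 62.3%) of cases, those in an exon in 41.7% (37.97 to 45.4%) and those between genes in 45.8% (44.6 to 47.1%). Where a distal peak lay within 1000 bp of the start of a transcript of another gene type, such as a non-coding RNA, 27.4% (24.1 to 30.9%) were lost, against 53.2% (52.3 to 54.2%) of the rest. Distance to the nearest protein-coding start made little difference, with 53.1% lost at 1 to 5 kb, 50.8% at 5 to 50 kb and 52.9% beyond 50 kb. Some lost peaks lay near an nLC peak without touching it. An nLC peak was within 1 kb of 681 lost peaks (9.98%) and within 5 kb of 1848 (27.1%), and the median distance was 15410 bp.

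The highest-scoring lost peak was at Adam8 (chr7:147176272-147178842). It was 2571 bp wide with a score of 1035.22, rank 9860 in the nEA list, and the nearest nLC peak was 38750 bp away. Neither HFSC list had an H3K4me3 peak there. Next came a 2309-bp distal peak on chromosome 12 with a score of 708.59, for which 3110018I06Rik was the nearest gene at 532332 bp. Lhfpl1, of the LHFPL family of membrane proteins, had a lost peak of 1219 bp with a score of 608.19, and Gpc3 one of 2514 bp with 540.79. Both are on the X chromosome, and at both the gene had no nLC peak at any start. The lost peak at Epgn, the EGF receptor ligand epigen, was 2456 bp wide with a score of 521.96, but an nLC peak lay 85 bp away and the gene kept a peak at its start.

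The 15 widest lost promoter peaks were up to 3155 bp wide. Their genes included Cbr2, Cilp2, Adam8, Klhl35, Gpc3, 5430405G05Rik, Cnksr2, Epgn, Arhgef4, Evl, Lhx2, Lrch1 and Zfp532. Of the 15, 8 genes had no nLC peak within 3000 bp of any protein-coding start, and 7 kept one at another start or beside the lost peak. Those without included Cbr2, a carbonyl reductase, Cilp2, Adam8, Gpc3, 5430405G05Rik and Cnksr2, a scaffold of Ras signalling. Lhx2 encodes a LIM homeobox factor of hair follicle stem cells. Its lost peak, 2351 bp with a score of 305.81, lay 8281 bp from the nearest nLC peak, while both HFSC lists had a peak there. Over all its starts Lhx2 went from 10316 to 4773 bp of peak. Of the 15 peaks, 7 overlapped an H3K27me3 peak of nEA-HFSCs and 8 one of nLC-HFSCs, beside 52.2% and 46.3% of all lost promoter peaks.

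The 15 widest lost distal peaks were 2612 to 3883 bp wide, and 11 had their middle in an intron, beside 48.1% of all lost distal peaks. All 15 nearest genes kept an H3K4me3 peak at a start of their own, as did 12954 of the 13696 genes with an nEA peak. The nearest genes included Fam83f, Trit1, Nab2, Bcl11a, 1700025G04Rik, Slc39a10, Myh9, Pvrl1, Vgll4, Sfn, Pkp1, Sh3bp4, Hic1 and Fam134b. Among them Pvrl1 encodes nectin 1 of adherens junctions, Pkp1 the desmosome protein plakophilin 1, Sfn the 14-3-3σ protein of keratinocytes and Myh9 a non-muscle myosin heavy chain. The peak nearest to Pkp1 (chr1:137790530-137793182) was 2653 bp wide with a score of 143.12, and that nearest to Myh9 (chr15:77645398-77648412) was 3015 bp wide with 246.22. Of the 15, 1 overlapped an H3K27me3 peak of nEA-HFSCs, the one nearest to Hic1, beside 7.08% of all lost distal peaks.

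Gained peaks were few and weak also at their widest. The widest gained promoter peak, at Gm14226, was 6097 bp wide but scored only 59.92, and the other 14 were 1131 to 2056 bp wide. Their genes were Fam180a, Amigo3, Efnb2, Art3, C1ql4, Gnb4, Syngr3, Ebf4, Ccdc80, Casp4, Dync1i1, 2010002M12Rik, Ankrd23 and Dlg4. Of the 15, 10 genes had no nEA peak at any start. The other 5 had one at another start or beside the gained peak (Amigo3, Art3, Dlg4, Syngr3 and Efnb2, which encodes the guidance ligand ephrin B2). The peak at Casp4, an inflammatory caspase, was 1190 bp wide with a score of 104.78.

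The 15 widest gained distal peaks were 1409 to 2169 bp wide. Of the nearest genes, 14 had an H3K4me3 peak at a start in both lists, beside 12954 of all 22359 protein-coding genes. The 14 included Hdac5 (2155 bp, score 173.4), Ncaph (1753 bp, 136.63), Nipal4, which encodes the ichthyosis protein ichthyin (1560 bp, 101.25), the repressor gene Bcl6 (1451 bp, 96.04) and Cyp1b1, an enzyme of xenobiotic metabolism (1443 bp, 51.99). The exception was Acsm1, an acyl-CoA synthetase gene, whose start was also gained. The others were Zfp532, Ppara, Irf2bp2, Nipsnap1, Pkp1, Armc2, Ephb6, Sema4b and Ccdc58. Pkp1 was thus the nearest gene to both a lost and a gained intronic peak, 3708 bp apart. The 5 highest-scoring gained peaks, at or nearest to Nipsnap1, Cct6b, Hdac5, Clasp2 and Acsm1, scored 162.9 to 186.04.

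Loci present at both ages were mostly narrower in late catagen. Merging the lists gave 25144 loci, of which 17269 were in both. Their median width was 2192 bp in nEA-HFSCs and 1926 bp in nLC-HFSCs, and the median log2 ratio of nLC to nEA width was -0.17 (10th to 90th percentile -0.58 to 0.11), a fold of 0.886. In nLC-HFSCs 78.9% of the shared loci were narrower. The median was -0.16 for the 11974 promoter loci and -0.21 for the 5277 distal loci, so the shift was of like size in both places. Loci under 750 bp in nEA-HFSCs went the other way, with a median of 0.20, and of those of 5000 bp or more 90.3% were narrower. The classes were set by the nEA width that also enters the ratio, which by itself tilts them in this direction. In all, 375 loci shrank to 50% of their width or less, and 14 doubled or more.

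**Figure D3:**
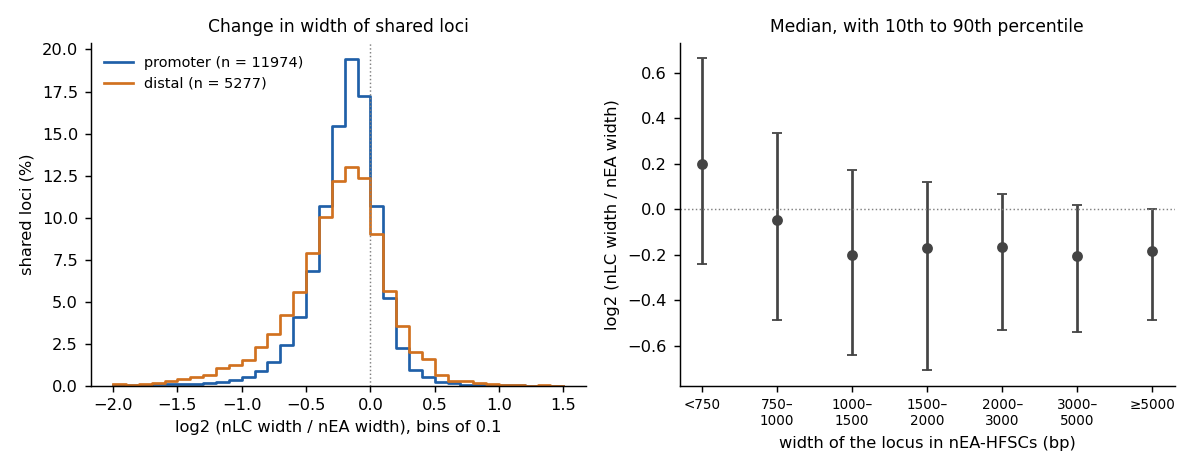
Left, share of the shared loci in percent by the log2 ratio of nLC to nEA width, for 11974 promoter (blue) and 5277 distal (orange) loci. Right, median of the same ratio (points) and its 10th to 90th percentile (bars) by the width of the locus in nEA-HFSCs in bp, which lies below 0 in every class but the narrowest.

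The 10 widest nEA peaks all had nLC peaks, which covered 74.7% to 100% of their length. They lay at Gata3, Hoxa3, Lmna, Bcl11b, Tcfap2a, Hoxb4, Ppara, Zfp503, Zbtb7b and Tnrc18. Many of these encode transcription factors, and Gata3 and Tcfap2a (AP-2α) act in epidermis and hair follicle. The Gata3 domain was 19868 bp in nEA-HFSCs, of which 98.2% lay under nLC peaks, and the Tcfap2a domain of 15616 bp was wholly covered. The least covered was at Hoxb4, where the locus went from 21728 to 13906 bp of peak, also the largest fall of any locus.

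The 10 largest falls in width included loci at or near the genes named here. At Hr, which encodes the corepressor Hairless required for hair cycling, the locus went from 9039 to 3538 bp (log2 ratio -1.35). A locus 5462 bp from the nearest start of Jup, the junction protein plakoglobin, went from 6255 to 1696 bp (-1.88). Lrig1, a stem cell marker of the upper follicle, went from 13893 to 10166 bp (-0.45), and Tnfrsf19, a receptor of the TNF family expressed in follicles, from 13756 to 9972 bp (-0.46). The rest of the 10 largest falls were at Gm10129, Cic, Dennd2d, 6330512M04Rik and Bcl11a. Increases were smaller. The largest increase, at Gm7120, went from 2300 to 7612 bp while its best score was 440.16 in nEA-HFSCs and 145.51 in nLC-HFSCs. Aldh3a1, an aldehyde dehydrogenase gene, went from 2222 to 4425 bp (0.99), and a locus 14817 bp from Gem, a small GTPase gene, from 836 to 2839 bp (1.76). A distal locus with Ezh2 as the nearest gene, 51314 bp away, went from 2510 to 5383 bp. The other increases were at or near Tmx1, Cldn9, Thap3, Esyt3, 1190002H23Rik and Snap29.

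Lost promoter peaks often lay in Polycomb chromatin. An H3K27me3 peak of nEA-HFSCs overlapped 52.2% (49.0 to 55.4%) of lost promoter peaks and 12.0% (11.5 to 12.6%) of kept ones. For H3K27me3 of nLC-HFSCs the shares were 46.3% (43.1 to 49.5%) and 8.53% (8.05 to 9.04%), so that many promoters without a called H3K4me3 peak in catagen still had H3K27me3. Gained promoter peaks lay between, at 36.2% (28.0 to 45.3%) for nEA and 26.7% (19.5 to 35.4%) for nLC H3K27me3. Distal peaks did not show this pattern, with 7.08% (6.45 to 7.77%) of lost and 10.4% (9.61 to 11.2%) of kept peaks under H3K27me3 of nEA-HFSCs. Promoter peaks overlapped by H3K27me3 were also the weaker ones. Overlap of lists from pooled cells does not show that both marks lie in the same cell. Of promoter peaks that scored under 100, 73.5% (68.6 to 77.9%) with and 72.3% (67.6 to 76.6%) without H3K27me3 in nEA-HFSCs were lost. From 100 to 200 the shares were 46.3% (41.4 to 51.2%) and 36.03% (31.2 to 41.1%), from 200 to 500 they were 11.4% (8.88 to 14.4%) and 6.21% (4.59 to 8.35%), and over all scores 25.1% and 4.03%. Among peaks of like score the gap was thus smaller than over all scores, but from 200 to 500 promoters with H3K27me3 were still lost more often, with intervals that do not overlap.

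**Figure D4:**
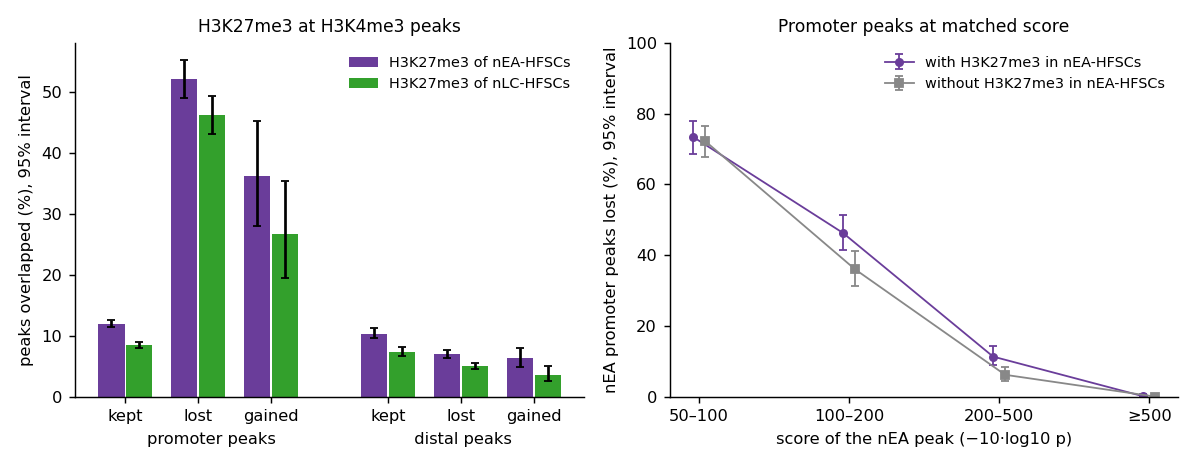
Left, share of kept, lost and gained H3K4me3 peaks overlapped by H3K27me3 peaks of nEA-HFSCs (purple) or nLC-HFSCs (green), in percent with 95% Wilson intervals. Right, share of nEA promoter peaks that were lost, by score, with and without H3K27me3 in nEA-HFSCs: 52.2% of lost promoter peaks carried the mark against 12.0% of kept ones, while loss with and without it was 73.5% and 72.3% below a score of 100 and 11.4% and 6.21% from 200 to 500.

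H3K9me3, a mark of heterochromatin, met few of these peaks in nEA-HFSCs, at 0.493% of kept and 0.743% of lost promoter peaks. In nLC-HFSCs it overlapped 13.0% (12.4 to 13.6%) of kept and 3.50% (2.51 to 4.88%) of lost promoter peaks, shares not matched for width or score. Within 3000 bp of gene starts the gap was smaller, with 14.8% (12.4 to 17.6%) of genes that lost H3K4me3 and 18.1% (17.4 to 18.8%) of those that kept it. The nLC H3K9me3 peaks were themselves weak, and 95.5% of them scored under 100. H3K4me3 of the bulge stem cells of the same ages showed how widely the regions were shared. EA-HFSCs had a peak at 98.8% (98.6 to 99.0%) of kept and 70.7% (67.7 to 73.5%) of lost promoter peaks. Of distal peaks, 79.6% (78.5 to 80.7%) of kept but 32.2% (31.0 to 33.4%) of lost ones had an EA-HFSC peak. Neither HFSC list had a peak at 66.8% (65.6 to 68.0%) of lost and 69.0% (66.0 to 71.9%) of gained distal peaks, against 18.4% (17.4 to 19.5%) of kept ones. These HFSC shares were not matched for score, and the median was 76.1 for lost, 60.7 for gained and 244 for kept distal nEA peaks.

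Most genes kept the mark at their start. Of 22359 protein-coding genes, 13696 had an nEA peak within 3000 bp of a protein-coding transcript start, and 742 of them had no nLC peak at any start, or 5.42% (5.05 to 5.81%). With equal numbers of top-scoring peaks this share was 2.93%. Of the 8663 genes without an nEA peak, 87 had an nLC peak, or 1.00%. H3K27me3 of nEA-HFSCs was at the start of 59.6% (56.0 to 63.0%) of the genes that lost H3K4me3, 40.2% (30.6 to 50.7%) of those that gained it and 14.5% (13.9 to 15.2%) of those that kept it. Among genes with nEA scores under 100, 73.0% with and 72.5% without H3K27me3 lost the peak. From 100 to 200 the shares were 43.6% (38.7 to 48.6%) and 39.4% (33.2 to 45.9%). From 200 to 500 they were 10.8% (8.53 to 13.7%) and 7.60% (5.47 to 10.5%), and the intervals overlap in each class. Over all genes with a peak at both ages the median width summed over peaks at the starts was 2793 bp in nEA-HFSCs and 2428 bp in nLC-HFSCs (median log2 ratio -0.18), and 10548 of these 12954 genes were narrower in nLC-HFSCs. Against these values the following lists of genes were read. Neighbouring genes can share a peak, so members are not independent.

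Markers of the sorted cells were read first. All 12 basal keratinocyte genes had a peak at both ages, with a median width of 7982.5 bp in nEA-HFSCs and 7035 bp in nLC-HFSCs. They had a peak in both HFSC lists as well. Krt14 had 9738 and 8915 bp, Krt5 8742 and 7788 bp, Trp63, the master factor of stratified epithelia, 6556 and 6465 bp, and Itga6, the α6-integrin of the gate, 5022 and 4160 bp. This was the highest median of all lists, and 11 of the 12 were narrower in nLC-HFSCs, beside 10548 of 12954 over all genes, with Krt15 the exception at 7827 and 8135 bp. Cd34, the antigen absent by the gate, had no peak at either age. Of the 16 bulge and outer root sheath genes found, however, 14 had an nEA peak.

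Of the 14 bulge and outer root sheath genes with an nEA peak, 1 lost it, Krt6a, with a peak of 594 bp and a score of 50.42. The other 13 had a median log2 ratio of -0.49, against -0.18 over all genes, and 12 of them were narrower in nLC-HFSCs, beside 10548 of 12954 over all genes. Besides Lhx2, Nfib, a transcription factor of follicle stem cells, went from 17850 to 12218 bp, Foxc1, a forkhead factor of the bulge, from 8064 to 4646 bp, and Gata6 from 5246 to 3502 bp. Sox9, a factor of the outer root sheath, changed less, from 6551 to 5963 bp, and Runx1 was wider in nLC-HFSCs, at 7015 and 7634 bp. The 10 kept suprabasal and cornified envelope genes had a median of -0.41. There Sbsn (suprabasin) went from 3175 to 1154 bp and Tgm3, an epidermal transglutaminase, from 2944 to 1245 bp, while Krt10 had 6332 and 6019 bp. In this list 2 of 12 genes lost the peak, the kallikrein Klk7 (1375 bp, score 65.98) and the desmocollin Dsc1 (2149 bp in 2 peaks, best score 76.74), and 7 had none at either age, among them Ivl and Flg.

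No gene of the hair matrix and inner root sheath list lost its peak. Of 18 found, 8 had one at both ages, and they were the regulators Gata3, Lef1, Msx1, Msx2, Dlx3, Foxn1 and Hoxc13 with the trichohyalin gene Tchh. The 10 without a peak were hair and inner root sheath keratins and Padi3. In the sebaceous list Pparg, a regulator of fat cell and sebocyte differentiation, lost its peak of 1579 bp (score 56.73) and Scd3, a fatty acid desaturase, gained one of 779 bp (62.85). Both scores lie near the threshold of 50.

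Markers of other cell types that the gate could let through were mostly unmarked. Of 52 genes in 5 lists (fibroblast and dermal papilla, endothelial, leukocyte and Langerhans, melanocyte, Merkel and neural), 20 had an nEA peak and 7 of them lost it, or 35.0% (18.1 to 56.7%) against 5.42% of all genes. The 7 were Vim, Sox2 and Col1a2 of the fibroblast and dermal papilla list, Cldn5 and Erg of the endothelial list, and Kit and Dct of the melanocyte list. Their peaks were 695 to 2131 bp wide with scores of 50.94 to 181.05, a range in which 49.2% to 86.1% of all nEA peaks were lost. Summed peak width went from 12449 to 6376 bp for fibroblast, 6421 to 3217 bp for endothelial, 7381 to 4769 bp for melanocyte and 10071 to 6856 bp for Merkel and neural genes, and was 3625 and 3568 bp for leukocyte genes. Defining markers such as Pecam1, Cdh5, Ptprc, Cd3e, Tyr, Mlana, Dcn and Lum had no peak at either age, among 32 of the 52 without one. The 13 that kept a peak included Twist2, Pdgfra, Col1a1, Kdr, Flt1, Cd68, H2-Ab1, Mitf, Pmel and Atoh1, and the peak of Pmel also covers the start of the cell cycle gene Cdk2. The part of such cells in the lost peaks was not tested.

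**Figure D5:**
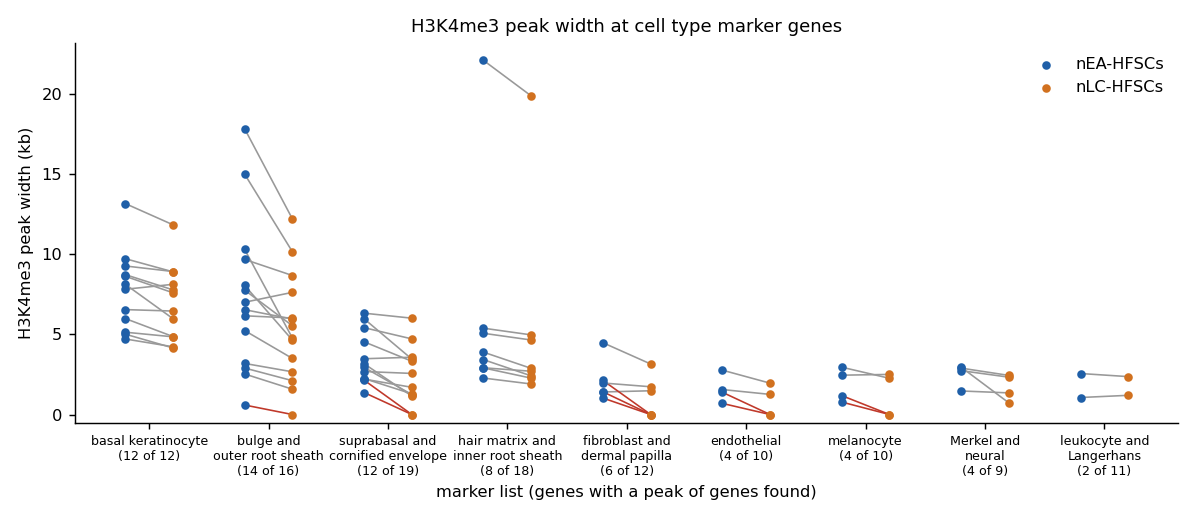
Summed width in kb of the H3K4me3 peaks at the starts of each marker gene in nEA-HFSCs (blue) and nLC-HFSCs (orange), with 1 line per gene, red where the gene had no nLC peak, and with genes without a peak at either age left out. The 12 basal keratinocyte genes keep wide domains at both ages, and 7 of the 20 genes shown for the 5 lists at the right drop to 0.

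Signalling and cell cycle genes lost their peak in few cases, as did genes in general (5.42%). In 2 of the lists, Notch and CDK inhibitors, 1 gene each lost it, of 14 and 6 with an nEA peak. All 25 cell cycle and replication genes, all 16 AP-1 and immediate early genes, all 26 Wnt pathway genes, all 24 BMP and TGF-β genes and all 12 Hedgehog genes with an nEA peak kept it. The same held for all 20 genes of H3K4 methylation writers and erasers and for 15 housekeeping genes. Their median log2 width ratios lay between -0.12 and -0.32, beside -0.18 over all genes. The cell cycle list had a median of -0.12, with Top2a, which encodes topoisomerase IIα, from 3541 to 1908 bp, and Ccnd1, cyclin D1, at 6843 and 6719 bp. Housekeeping genes had -0.32, so narrower peaks were not limited to cell type genes.

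Within the Wnt list the median was -0.19, with 21 genes narrower and 5 wider in nLC-HFSCs. The ligands Wnt3a (5269 to 3490 bp), Wnt10b (4618 to 2815 bp) and Wnt4 (7100 to 4766 bp) had narrower peaks in nLC-HFSCs, and the secreted inhibitors Sfrp2 (3548 to 1672 bp) and Sfrp1 (4430 to 2819 bp) did as well. The ligands Wnt6 (3025 and 3055 bp) and Wnt7a (2890 and 2905 bp) hardly changed. The feedback target Axin2 had 7194 and 7670 bp, and the transducer Ctnnb1, β-catenin, 4322 and 4066 bp. Dkk1 and Dkk2 had no peak at either age. In the BMP and TGF-β list the median was -0.27, with 20 genes narrower and 4 wider in nLC-HFSCs. There the ligand Bmp6 had 2258 and 1130 bp, Tgfb3 5339 and 2913 bp and the inhibitory Smad7 9649 and 6628 bp. The ligands Bmp4 (5225 and 5042 bp) and Bmp7 (4930 and 4788 bp) changed little. Grem1, a secreted BMP inhibitor, went the other way, with 2261 and 2526 bp. In the Notch list the median was -0.34, and Heyl, a target repressor, lost its peak of 1418 bp (score 136.94), while the ligand Jag1 went from 11081 to 7156 bp. Of the CDK inhibitors, Cdkn1c (p57) lost a peak of 941 bp with a score of 124.07, and Cdkn1a (p21) had 4551 and 3971 bp. Shh, the Hedgehog ligand of the anagen hair germ and matrix, had a small peak at both ages, of 1148 and 848 bp with scores of 102.77 and 65.25.

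The same comparison in HFSCs gave a similar picture with more loss. From EA-HFSCs to LC-HFSCs, 33.6% (32.96 to 34.2%) of the peaks were lost, 12.7% (12.1 to 13.3%) at promoters and 64.7% (63.7 to 65.7%) at distal sites, and 1.77% (1.57 to 2.00%) of LC peaks were gained. Lost peaks were again narrower, with a median width 0.440 times that of kept peaks against 0.434 times in non-HFSCs. In every width class a larger share was lost in HFSCs, such as 74.6% (73.3 to 75.9%) against 39.5% from 1000 to 1500 bp. EA-HFSC peaks were also wider, with a median of 2279 bp against 1671 bp in nEA-HFSCs, so equal widths need not be like classes. Of peaks from 2000 to 3000 bp 15.4% (14.5 to 16.4%) were lost in HFSCs against 2.23% in non-HFSCs, and of those of 5000 bp or more 23 of 1444 against 0 of 689. The difference between the populations could not be tested over samples, since each has 1 pooled list per age.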

How the data were processed

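The data were peak lists of sorted, MNase-cut mouse skin chromatin, 1 list for each of 4 populations and 3 marks. The authors trimmed single-end reads (Trimmomatic 0.22), aligned them to mm9 with Bowtie2, removed poor alignments, pooled replicates and called peaks with MACS against IgG. The deposited score of each peak is 10 times the negative log10 of its p-value and reaches a ceiling at 3100 or slightly above. It was used to describe, rank or filter peaks and is not normalised between lists. Read numbers are given by the study only as ranges, over samples and for HFSCs at each age, with H3K4me3 described as nearly saturated. The depth of each list was not used here.

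Overlaps, widths and places were computed with Python 3.11.15, numpy 2.4.6, pandas 2.3.3 and scipy 1.17.1. Overlap calls, tested on simulated data, were exact in 4 of 4 settings with 20000 peaks and matched those of bedtools 2.31.1. Genes were those of GENCODE vM1 on NCBIM37, the assembly of mm9, with 46015 starts of protein-coding transcripts. The use of these starts for promoters and genes was settled after seeing the data, because the annotated gene start alone missed peaks of genes such as Itga6 and Trp63. The 26 nEA and 20 nLC peaks on unplaced sequence entered totals only. Sequences were read from NCBIM37.

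The members, gene lists and named loci were chosen with earlier results of these data known. Named were the gene nearest to each of the 15 widest lost and gained promoter and distal peaks, the 5 highest-scoring lost and gained peaks, the 10 widest nEA peaks, the 10 largest falls and rises in width, and list members. Printed sequences are examples. A few of the named loci are not reported here. Alternatives concerned score, overlap, merging, chromosomes, promoter and TSS definitions.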

Additional observations from a re-analysis of the deposited data

Results flagged for a closer look

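The median score of the H3K4me3 list moved in opposite directions in the 2 populations. In non-HFSCs the ratio of the nLC to the nEA median was 1.54 (712.76 and 461.81), and in HFSCs the ratio of the LC to the EA median was 0.369 (225.865 and 611.965). The difference was not tested, since there is 1 list per population and age. The share of scores at or above 3100 was 12.1% for nEA-HFSCs and 5.27% for nLC-HFSCs, and for HFSCs 3.20% at the earlier and 0% at the later age. A score depends on read number and background, so these ratios do not measure the level of the mark.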

How the results depend on the processing

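Distal nEA peaks were lost more often than promoter peaks, and lost peaks were narrower than kept ones, under every alternative that gave these values, of 13 tried. Of 60 values under alternatives, 20 stayed within the interval of the reported value (ratios, to 3 digits) and 40 moved. With a score of at least 100 in both lists, 19.8% of nEA peaks were lost (6.72% of promoter, 45.6% of distal), 2.28% of nLC peaks gained, the ratios of number and length were 0.824 and 0.788, and the lost to kept width ratio was 0.517. With equal numbers of top-scoring peaks these were 12.3% (3.53%, 29.0%), 10.2%, 1 (by construction), 0.852 and 0.532, and 2.93% of genes lost the TSS peak. Requiring 50% overlap gave 30.2% (8.56%, 55.1%), 6.16% gained, a width ratio of 0.440 and 6.18% of genes. Accepting a peak within 1 kb gave 25.1% (6.24%, 46.8%), 4.61% gained and 0.446. Merging peaks under 1 kb apart gave 25.8% (6.23%, 50.2%), ratios of 0.791 and 0.765 and a width ratio of 0.414. Autosomes alone gave ratios of 0.773 and 0.766. Calling promoters by the middle of the peak gave 9.61% and 32.6% lost at promoter and distal sites, a 3000-bp window 10.99% at promoters, and starts of all gene types 8.91% and 53.8%. Every transcript of protein-coding genes, added after seeing the data, gave 8.04% at promoters, and using the annotated gene start only, also added, left the gene share at 5.66%.

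No paired analysis was possible because each side is 1 pooled list and every sample carries the same replicate number. Leaving out a replicate was not possible for the same reason. Of lost peaks 69.0% and of gained peaks 89.6% scored under 100, near the lowest value of 50, and the part of depth in these calls was not tested.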
